A study of Homo sapiens with 3 samples.

Results

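The genes described here are 10 regulators of tissue-type alternative splicing: the muscleblind-like proteins MBNL1, MBNL2 and MBNL3, the CELF proteins CELF1 and CELF2, RBFOX2, PTBP1, QKI, and the epithelial splicing regulatory proteins ESRP1 and ESRP2. They were taken as all probes that the platform annotation gives to these symbols, 24 of the 47309 probes on the array; the 10 genes are among 20044 genes with a named probe. MBNL2 was selected on the signal of its brightest probe, which was lower in PARP1-depleted cells, so its values in that comparison are a description and carry no test. The cells were H2030-BrM3, a subline of the human lung adenocarcinoma H2030 selected to seed the brain. The 2 groups were cells with a short hairpin RNA, which lowers the transcript it matches, against PARP1 (hairpin 1 on 1 array and hairpin 2 on another) and cells with a non-targeting hairpin, the control (1 array). All had been cultured for 1 day in RPMI medium with 10% fetal bovine serum, and total RNA was hybridized to Illumina HumanHT-12 V4 BeadChips. PARP1 binds broken DNA and attaches poly(ADP-ribose) to itself and to other proteins, and the series title presents the study as a search for its target genes. Both groups derive from 1 cell line and the control is a single array. For each probe, the spread behind a p-value comes only from the difference between the 2 hairpin arrays, with the rest borrowed from other probes. The labels name no separate cultures, so that spread may be technical.

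Alternative splicing regulators bind short sequence elements in and around exons and cause an exon to be kept or skipped, and which regulators a tissue makes sets much of its isoform pattern. MBNL proteins promote adult muscle and brain isoforms and are trapped by expanded CUG repeats in myotonic dystrophy, while CELF proteins often act on the same exons in the opposite sense. PTBP1 represses neuronal exons in non-neuronal cells, RBFOX2 and QKI shape mesenchymal and muscle programmes, and ESRP1 and ESRP2 maintain epithelial isoforms. The array reads the transcript level of the regulators and not the splicing of their targets.

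A probe counted as above background where its deposited detection p was under 0.01, and 16350, 17420 and 16855 probes met this on the hairpin 1, hairpin 2 and control arrays. The lowest signal called above background was 176.5, 182.5 and 174.2 units on these arrays, and the median signal of all probes was 152.2, 161.7 and 153.6. The targeted gene had the labelled direction: PARP1 gave signals of 1312 with hairpin 1 and 765.8 with hairpin 2, against 4365 in the control. After background correction and quantile normalization its mean log2 change was −2.39 ± 0.28 (limma moderated SE, n = 2 against 1). It was 1 of only 2 probes past an adjusted limma p of 0.05, with CTBP2 the other (adjusted p = 0.00629 for PARP1 and 0.0236 for CTBP2). No probe passed when each gene was represented by its brightest probe, when only probes above background on all arrays were fitted or without the intensity trend, 1 gene passed on the mean of its probes, and 3 probes passed with median scaling or with no filter on dim probes.

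Of the 24 probes, 11 were above background on all 3 arrays, 3 on some arrays and 10 on none. Over all 47309 probes, 15706 were above background on all 3 arrays and 29046 on none. 7 of the 10 genes had at least 1 probe above background on all arrays. CELF2, ESRP1 and ESRP2 had no probe above background on any array. The signals of the 10 undetected probes lay between 125.2 and 169.5 units, below the lowest detected signal of each array, and no ratio is given for them.

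**Figure D1:**
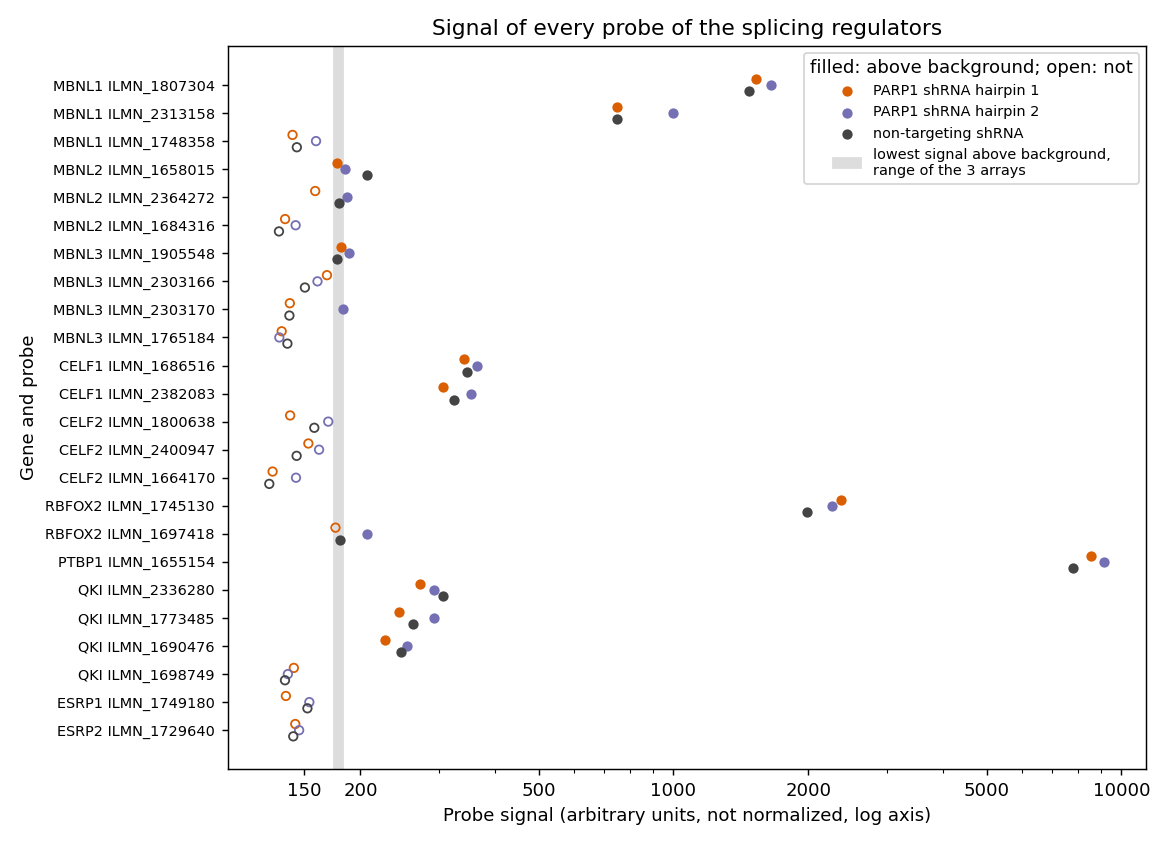
Signal of each of the 24 probes on the PARP1 hairpin 1 (orange), PARP1 hairpin 2 (purple) and non-targeting (dark grey) arrays, on a log axis in arbitrary units without normalization. Filled points are above background and open points are not. The grey band marks the lowest detected signals (174.2 to 182.5). The brightest MBNL2 probe has its hairpin points at or beside the band and its control point at 206.5. MBNL2 probe ILMN_2364272 lies left of the band with hairpin 1 (158.5), and ILMN_1684316 lies left of it on all arrays. PTBP1, RBFOX2 and MBNL1 each have a probe far to the right of the band.

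None of the 14 probes above background on at least 1 array passed an adjusted limma p of 0.05 between PARP1 hairpins and control, where 0.011% of all 18263 such probes did. At an unadjusted p under 0.05 the count was 1 of 14, the MBNL2 probe on which the gene was picked, and the share over all probes was 4.29%. That same probe was the 1 member at least 1.5-fold from the control on the same side with each hairpin, a size reached by 1.53% of all probes and, downwards, by 0.958%. Among the 11 probes above background throughout, 5 were lower with both hairpins, 1 was higher with both and 5 lay on opposite sides of the control. Over all probes above background throughout these shares were 32.3%, 33.5% and 34.2%. The median log2 ratio of the 11 probes was −0.04 with hairpin 1 and −0.03 with hairpin 2, against 0.01 and 0.00 over all 15706 such probes.

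**Figure D2:**
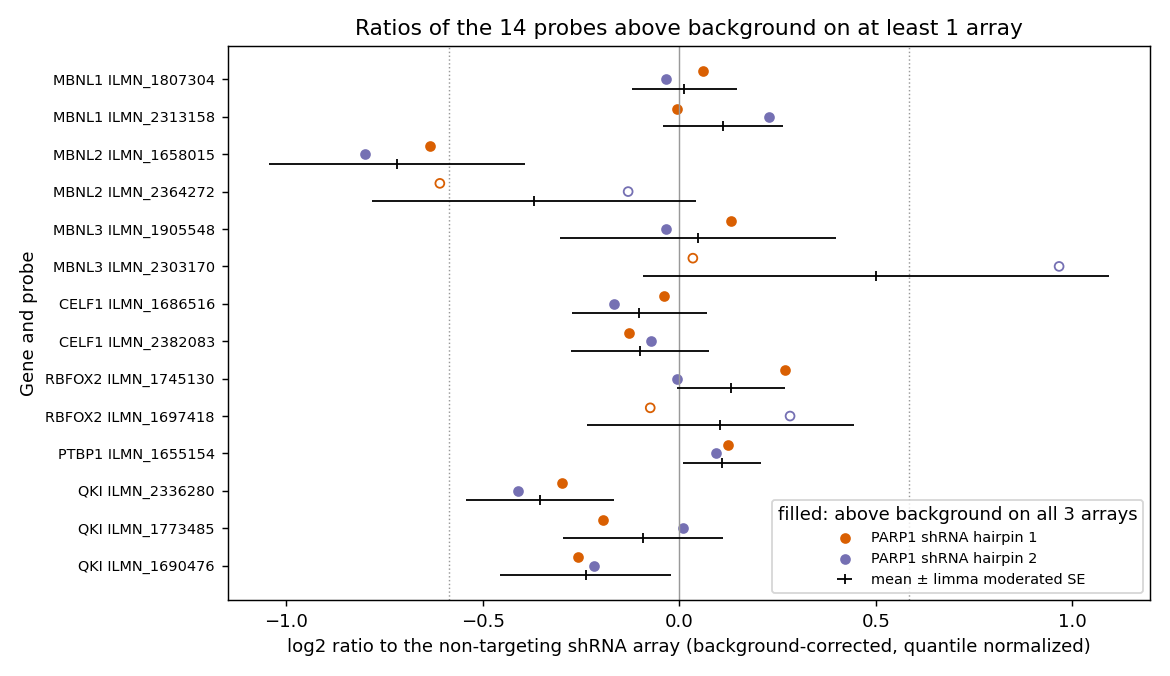
Log2 ratio of the hairpin 1 (orange) and hairpin 2 (purple) arrays to the non-targeting array for the 14 probes above background on at least 1 array, with the mean and its limma moderated SE below each pair as a bar. Dotted lines mark 1.5-fold; MBNL2 probe ILMN_1658015 (−0.63 and −0.80) is the only probe with both points beyond the lower line, and MBNL3 probe ILMN_2303170 has 1 point beyond the upper line.

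MBNL2, the muscleblind-like protein that acts mainly in brain, was lower with both hairpins by its brightest probe, ILMN_1658015. The probe gave 177.0 units with hairpin 1 and 184.8 with hairpin 2, against 206.5 in the control. Both hairpin arrays were below the control, the direction for which the probe had been picked. After normalization, both hairpins were below the control on 32.3% of all probes above background throughout. The signals of the hairpin arrays exceeded the lowest detected signal of their own array by only 0.51 and 2.30 units, whereas the control exceeded its own by 32.3, and the detection p was 0.00909, 0.00649 and 0.0026. Without any normalization the hairpin signals were 85.7% and 89.5% of the control's. Background-corrected and normalized, the log2 intensity was 5.75 and 5.59 with the hairpins and 6.39 in the control, a ratio of −0.63 and −0.80 and a mean 1.64-fold lower. Hairpin 1 gave the lowest raw signal and hairpin 2 the lowest normalized value, so the order of the hairpins depended on normalization. Without background correction the ratios were −0.22 and −0.27. On the authors' deposited normalized values they were −0.22 and −0.27, from 181.2 and 175.0 units with the hairpins and 211.8 in the control.

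The other MBNL2 probes did not give the same picture. ILMN_2364272, annotated to a different MBNL2 transcript, read 158.5 units with hairpin 1 and 186.3 with hairpin 2, against 178.8 in the control, so the control lay between the hairpins before normalization. It was not above background with hairpin 1, and its normalized log2 ratios were −0.61 and −0.13. ILMN_1684316, annotated to the same transcript as the brightest probe, was not above background on any array, with 135.8 and 143.4 units for the hairpins and 131.6 for the control. The mean log2 change of MBNL2 over its detected probes was −0.54. RNA came from whole cultures, so a lower level in each cell and fewer cells with the transcript cannot be told apart.

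**Figure D3:**
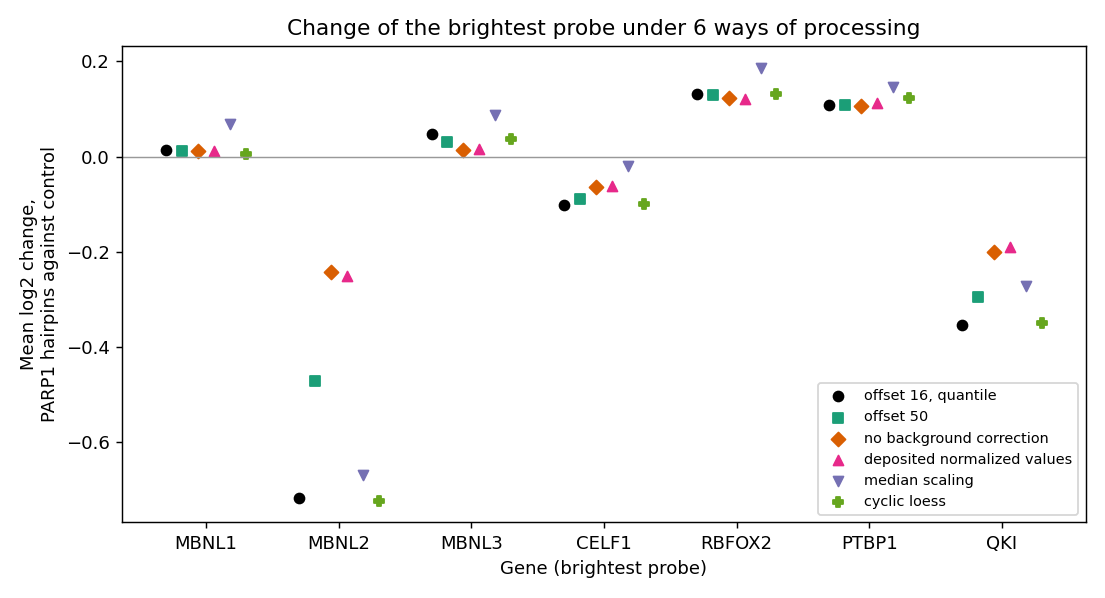
Mean log2 change of both PARP1 hairpins against control for the brightest probe of the 7 detected genes under 6 ways of processing the same arrays. MBNL2 spans −0.24 without background correction to −0.72 with cyclic loess, QKI spans −0.19 to −0.35, and PTBP1 stays between 0.11 and 0.15.

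Probes of low signal had wider ratios on these arrays than bright ones. Of the probes above background throughout, 0.494% of the 3240 with a mean signal under 250 were at least 1.5-fold lower with both hairpins, against 0.0387% of the 5173 with a mean signal of at least 1000. A difference of 1.5-fold between the hairpins themselves was found in 5.03% of these dim probes and 0.271% of the bright ones. When such probes were divided into 20 classes of equal size by mean signal, the brightest MBNL2 probe fell in the dimmest class (179 to 197 units), whose central 95% of mean log2 changes ran from −0.51 to 0.41. Its own −0.72 lay below that range, which is no test, because the probe had been picked for being low.

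**Figure D4:**
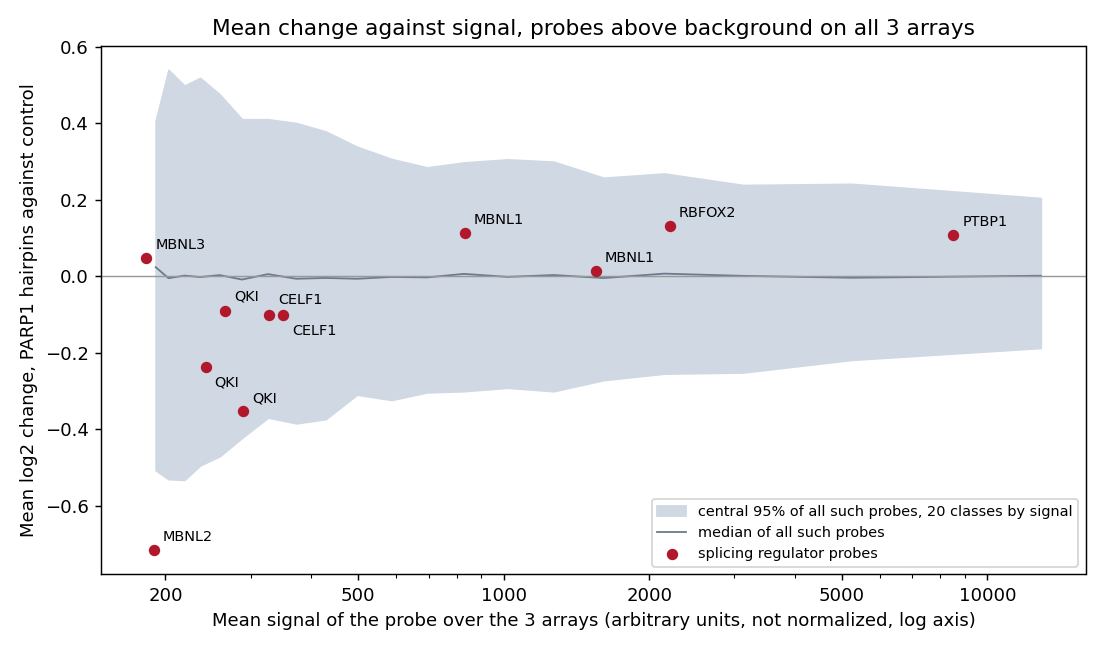
Mean log2 change of both PARP1 hairpins against control (vertical axis) by mean signal over the arrays (horizontal log axis, arbitrary units) for the 11 splicing regulator probes above background on all 3 arrays. The shaded band is the central 95% of all 15706 such probes in 20 classes by signal. It spans −0.51 to 0.41 in the dimmest class, −0.53 to 0.54 in the next and −0.19 to 0.20 in the brightest. MBNL2 at −0.72, picked for being low, is the only member point below the band.

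RefSeq (GRCh38.p14) gives MBNL2 a pair of start sites, and their windows of 250 bases before to 50 after the start are shown with the first of 3 for MBNL1 and the first of 2 for PTBP1, because MBNL2 had the largest ratios shared by both hairpins and the others are members with ratios near 0. Capitals mark TGANTCA (an AP-1-type motif) and GGGCGG, the GC box, on either strand; TGANTCA reads alike on both strands apart from its middle base, the motifs do not overlap each other in these windows, and both were chosen after the sequences had been read.
MBNL2 first start, chr13:97141584-97141883, plus strand: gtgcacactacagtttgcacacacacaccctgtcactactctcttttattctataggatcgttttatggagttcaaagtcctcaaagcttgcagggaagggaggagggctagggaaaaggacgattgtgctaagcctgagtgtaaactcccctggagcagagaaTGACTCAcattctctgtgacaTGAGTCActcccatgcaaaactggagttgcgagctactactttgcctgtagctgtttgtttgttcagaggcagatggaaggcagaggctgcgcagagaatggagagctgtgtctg
MBNL2 second start, chr13:97222083-97222382, plus strand: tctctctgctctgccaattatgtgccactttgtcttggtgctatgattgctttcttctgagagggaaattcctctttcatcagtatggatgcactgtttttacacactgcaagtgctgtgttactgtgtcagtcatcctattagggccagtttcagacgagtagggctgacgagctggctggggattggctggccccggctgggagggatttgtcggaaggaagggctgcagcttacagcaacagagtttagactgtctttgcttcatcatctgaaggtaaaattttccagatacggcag
MBNL1 first start, chr3:152268679-152268978, plus strand: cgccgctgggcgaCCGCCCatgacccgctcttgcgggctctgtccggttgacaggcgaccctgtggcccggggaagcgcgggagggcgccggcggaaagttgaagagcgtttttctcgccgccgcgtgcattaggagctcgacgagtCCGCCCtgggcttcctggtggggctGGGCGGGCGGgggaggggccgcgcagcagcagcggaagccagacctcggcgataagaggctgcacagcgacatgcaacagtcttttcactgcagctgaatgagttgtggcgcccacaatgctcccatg
PTBP1 first start, chr19:797202-797501, plus strand: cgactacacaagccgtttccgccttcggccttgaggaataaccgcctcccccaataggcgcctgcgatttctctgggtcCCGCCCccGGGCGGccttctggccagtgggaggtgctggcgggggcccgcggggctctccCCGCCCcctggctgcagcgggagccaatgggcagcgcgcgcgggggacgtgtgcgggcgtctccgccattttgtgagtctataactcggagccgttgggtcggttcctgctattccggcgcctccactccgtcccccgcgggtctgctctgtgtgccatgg
The first MBNL2 window held 2 TGANTCA motifs and no GC box, and the second held neither. The first MBNL1 window held 4 GC boxes, of which a pair overlap, and its other windows held 0. The first PTBP1 window held 3 and the second 2. Over all 35114 windows of this length, 7.71% held TGANTCA at least once, 0.515% held it more than once and 45% held GGGCGG. The MBNL2 windows had 4 and 5 CpG dinucleotides, the MBNL1 windows 31, 5 and 19 and the PTBP1 windows 31 and 57, with a median of 14 over all windows, so 1 MBNL1 window had as few GC boxes and CpG dinucleotides as the second of MBNL2. Among the members, MBNL1, MBNL2, MBNL3, CELF1, CELF2 and PTBP1 had windows to read. The MBNL3 windows had 16, 17, 2 and 7 CpG dinucleotides, with a GC box in the second only. Those of CELF1 had 44, 39, 2, 1 and 2, with GC boxes in the first and second only. The fourth CELF2 window held TGANTCA too. Windows with few CpG dinucleotides and no GC box were thus not particular to MBNL2. No measurement here bears on which start was used or on any factor at these motifs.

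MBNL1, the most widely expressed muscleblind-like protein, was measured well above background by 2 probes. ILMN_1807304 gave 1525 units with hairpin 1 and 1654 with hairpin 2, against 1477 in the control. Normalized, the ratios were 0.06 and −0.03, with a mean of 0.01 ± 0.13 (95% interval −0.27 to 0.29, limma adjusted p = 0.998). ILMN_2313158 gave 748.7 and 995.3 units, against 749.5, and ratios of −0.01 and 0.23. Hairpin 1 was at the level of the control on this probe and hairpin 2 stood above both, and the mean of 0.11 ± 0.15 did not pass the limma test (adjusted p = 0.997). ILMN_1748358 was not above background on any array.

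MBNL3, an inhibitor of muscle differentiation in mouse cells, stayed at the detection limit. Its probe ILMN_1905548 gave 180.9 and 189.0 units with the hairpins and 177.6 in the control, and the log2 ratios were 0.13 and −0.03. ILMN_2303170 was above background with hairpin 2 only, at 182.8 units, against 139.2 with hairpin 1 and 138.9 in the control. The hairpin mean of that probe was below the lowest detected value of the control array, so no bound on a fold could be given. The remaining pair of MBNL3 probes was not above background on any array.

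CELF1, a CUG-binding protein that also promotes mRNA decay, had the same mean log2 change on 2 probes, to 2 decimals, with the hairpins in opposite orders. ILMN_1686516 gave 340.1 units with hairpin 1 and 363.4 with hairpin 2, against 345.3 in the control. ILMN_2382083 gave 305.9 and 353.2 units, against 322.9. In both cases the control lay between the hairpins before normalization. The normalized log2 ratios were −0.04 and −0.17 for the first probe and −0.13 and −0.07 for the second, with means of −0.10 ± 0.17 and −0.10 ± 0.18 (limma adjusted p = 0.997 for each). CELF2, abundant in brain and lymphocytes, was not detected by any of its 3 probes, whose signals lay between 125.2 and 169.5 units.

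QKI, a STAR-family RNA-binding protein needed for myelination in mouse and active in mesenchymal splicing, was lower with both hairpins on 2 of its 3 detected probes. ILMN_2336280 gave 272.3 units with hairpin 1 and 291.4 with hairpin 2, against 305.4 in the control, and both hairpins were below the control before and after normalization. Its log2 ratios were −0.30 and −0.41, a mean of −0.35 ± 0.19 (95% interval −0.75 to 0.05, limma adjusted p = 0.997). The mean was −0.20 without background correction and −0.19 on the authors' deposited normalized values.

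The other detected QKI probes, annotated to another transcript, differed from each other with hairpin 2. ILMN_1690476 gave 226.6 and 253.6 units with the hairpins and 246.5 in the control, with ratios of −0.26 and −0.22. ILMN_1773485 gave 243.9 and 292.2 units, against 262.0, with ratios of −0.19 and 0.01. Hairpin 1 was below the control on all 3 detected QKI probes, whereas hairpin 2 was below it on 2 after normalization. Neither probe passed the limma test (adjusted p = 0.997 for each), and ILMN_1698749 was not above background.

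RBFOX2, which binds GCAUG elements and is an RBFOX protein found also outside neurons, had 1 bright probe. ILMN_1745130 gave 2365 units with hairpin 1 and 2263 with hairpin 2, against 1989 in the control. Both hairpins were higher before normalization, but after it only hairpin 1 was, with log2 ratios of 0.27 and −0.01 and a mean of 0.13 ± 0.14 (95% interval −0.16 to 0.42, limma adjusted p = 0.997). ILMN_1697418, annotated to the same transcript, lay near the detection limit at 176.0 and 206.9 units, against 180.2, with ratios of −0.07 and 0.28. The 2 probes thus placed the hairpins in opposite orders.

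PTBP1, the polypyrimidine tract-binding protein that represses neuronal exons, had 1 probe. It gave 8576 units with hairpin 1 and 9158 with hairpin 2, against 7787 in the control. Both hairpin arrays were above the control, with normalized log2 ratios of 0.12 and 0.09. The mean of 0.11 ± 0.10 (95% interval −0.10 to 0.32) did not pass the limma test (adjusted p = 0.997). It was the only member probe above background throughout that was higher with both hairpins.

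The paralogs PTBP2, the neuronal form that PTBP1 represses by exon skipping, and PTBP3 are given for comparison, outside the naming rule. The PTBP2 probe ILMN_1707240 gave 304.3 and 330.5 units with the hairpins, against 300.7 in the control, with ratios of 0.03 and −0.06. A second PTBP2 probe, ILMN_2142979, read 289.3 and 417.5 units, against 305.4, with ratios of −0.14 and 0.43. The PTBP3 probes ILMN_2117223 and ILMN_1768197 had ratios of 0.04 and 0.08 and of −0.08 and 0.04. None of these passed the limma test, where the smallest adjusted p was 0.997.

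ESRP1 and ESRP2, which hold the epithelial isoforms of genes such as CD44 and FGFR2, were not detected on any array. The ESRP1 probe gave 136.4 and 153.8 units with the hairpins and 152.3 in the control, and the ESRP2 probe gave 143.1 and 146.0, against 141.6. Because each gene has 1 probe, a probe that fails and a gene that is silent cannot be told apart. The label calls the cells lung adenocarcinoma, and 5 of 11 epithelial marker genes had a probe above background on all arrays, namely EPCAM, KRT8, KRT18, CLDN7 and OVOL2. The cadherin CDH1, KRT7, KRT19, CLDN4, OVOL1 and GRHL2 had none above background. The summed signal of the 14 epithelial probes was 4520 and 5047 units with the hairpins and 4807 in the control. Of the 8 epithelial probes above background, 5 were lower with both hairpins, 2 were higher with both and 1 was on opposite sides. Over all probes above background throughout these shares were 32.3%, 33.5% and 34.2%. The medians of the 8 were −0.23 and −0.20, against 0.01 and 0.00 over all such probes. EPCAM probe ILMN_2160210, among the higher ones, had log2 ratios of 0.06 and 0.05, whereas EPCAM probe ILMN_3249032 had −0.46 and −0.07. KRT18 had −0.28 and −0.38 by probe ILMN_1730848 and −0.18 and −0.27 by ILMN_1803408. CLDN7 had −1.14 and −0.81, and OVOL2 had −0.39 and −0.36. CLDN7 and OVOL2 were the only 2 of the 8 with an unadjusted limma p under 0.05 (4.29% over all probes). None passed the adjusted p (0.997 at the smallest). The part of these markers in the values of MBNL2, QKI and the other regulators was not tested. None of 4 lung markers (NKX2-1, SFTPB, SFTPC and NAPSA) was detected. Of 7 mesenchymal markers VIM, CDH2 and TWIST1 were above background on all arrays, and VIM gave 13340 and 14485 units with the hairpins and 13963 in the control by probe ILMN_1782538. Of the 4 mesenchymal probes above background, 2 were lower with both hairpins, 0 were higher with both and 2 lay on opposite sides. Their medians were −0.02 and −0.07. 1 of the 4 had an unadjusted limma p under 0.05 (4.29% over all probes), and the smallest adjusted limma p was 0.997. No probe of the 3 leukocyte or 4 muscle markers with a probe was detected.

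Other tissue-type splicing regulators were read in the same fit. Of 32 genes listed, 31 had a probe and 16 had a probe above background on at least 1 array, 30 probes in all. Regulators active in neurons that had none included CELF3, CELF4, CELF5, CELF6, ELAVL2, ELAVL3, ELAVL4, NOVA2, RBFOX1, RBFOX3 and SRRM4. NOVA1 and PTBP2 each had a probe above background on all arrays. MSI1 was above background with both hairpins only, at 191.5 and 188.8 units, against 163.2 in the control. Of the 30 probes, 6 were lower with both hairpins, 9 were higher with both and 15 were on opposite sides. Over all probes above background on all 3 arrays the shares were 32.3%, 33.5% and 34.2%. The medians of the 30 were 0.00 with hairpin 1 and 0.04 with hairpin 2, against 0.002 and 0.002 over all 18263 probes fitted. 0 of the 30 passed an adjusted limma p of 0.05, 3 had an unadjusted p under 0.05 (4.29% over all probes) and 1 was 1.5-fold from the control with both hairpins (1.53% over all probes).

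That probe was ILMN_1673941 of RBM24, a regulator of muscle exons. It gave 229.0 and 250.7 units with the hairpins and 284.3 in the control, with log2 ratios of −0.62 and −0.65. A second RBM24 probe, above background on 1 array, gave −0.44 and 0.04. NOVA1, a neuronal regulator, had ratios of 0.52 and 0.31. TIAL1, which binds U-rich elements beside weak splice sites, had −0.66 and −0.25 by 1 probe but −0.03 and 0.11 and −0.29 and 0.31 by 2 others above background. KHDRBS1 (Sam68) had 0.25 and 0.24, HNRNPLL, a regulator of CD45 exons in lymphocytes, had −0.27 and −0.22, and MATR3, a partner of PTBP1, had 0.23 and 0.18 by its brightest probe and −0.24 to 0.28 by 3 others. The limma adjusted p was 0.997 for the named probe of each of these 6 genes.

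Genes whose transcripts these regulators are known to splice were read as total signal. Of 41 listed, 35 had a probe and 27 had a probe above background on at least 1 array. Of their 50 probes 16 were lower with both hairpins, 15 were higher with both and 19 lay on opposite sides, with medians of −0.03 and 0.03. Over all probes above background on all 3 arrays the shares were 32.3%, 33.5% and 34.2%. 0 of the 50 passed an adjusted limma p of 0.05 (0.011% over all probes). Likewise 0 had an unadjusted limma p under 0.05 (4.29% over all probes) and 0 reached 1.5-fold with both hairpins (1.53%). Probes above background on all arrays were ranked by the smaller of their same-sided ratios. The widest were those of the death receptor FAS (−0.67 and −0.29), the Wnt effector TCF7L2 (−0.29 and −0.46) and the actin cross-linker ACTN4 (0.23 and 0.29). The genes that followed were the pyruvate kinase PKM (−0.24 and −0.17), the tropomyosin TPM2 (−0.16 and −0.39) and the exocyst subunit EXOC7 (0.15 and 0.26). However, PKM had −0.05 and −0.04 by its brightest probe and −0.19 and −0.16 by another. TPM2 had −0.04 and −0.37 by its brighter probe. EXOC7 had −0.001 and −0.40 by a probe above background on 2 arrays.

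Of 12744 probes of other named genes above background throughout, the 8 whose pair of log2 ratios lay closest to that of MBNL2 were probes of ELP5, SFR1, C15orf40, SYMPK, PKP4, RBM24, ZNF705G and CCNG2. Their Euclidean distances to MBNL2 over the 2 ratios were 0.0148 to 0.157. The nearest, ELP5, an Elongator subunit, had ratios of −0.63 and −0.79, from 210.8 and 221.2 units with the hairpins and 257.8 in the control. The highest signal among these 8 probes was 336.5 units, of C15orf40 in the control. The likeness rests on 3 arrays, and both ratios share the control array.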

How the data were processed

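Expression was measured on 3 arrays. The authors' deposited non-normalized table holds an intensity per probe made with GenomeStudio, per the submitters' processing notes, on a linear scale, and a detection p-value per probe, per the file headers, in steps of 1 in 770. Their second deposited table holds intensity values with equal quantiles in each column, so quantile normalization was inferred. Another 14 probes of the second table were not used here. Software version and background setting: not given in the sources used here. Of 47309 probes, 30106 carried 1 gene symbol, 17203 none or several; RefSeq (GRCh38.p14) updated 0 symbols. The RefSeq table held 23 of the 24 member accessions.

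Background was corrected through the detection p-values (neqc, limma 3.58.1, R 4.3.3, offset 16), followed by quantile normalization and log2. A probe entered the fit where 1 or more arrays had it at a detection p under 0.01 (18263 probes); these were fitted probe by probe (lmFit, eBayes with intensity trend, 1 residual and 14.4 prior degrees of freedom), with Benjamini-Hochberg adjustment over all of them at 0.05. A gene's brightest probe is the kept one with the highest mean log2 intensity. The fit was tested on simulated data. With 3 arrays precision is low: the median moderated SE was 0.168. The fit assumes that the single control varies as the hairpins do, and both ratios share it.

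The members and gene lists were chosen with earlier results of these data known. Named were all members, PARP1, up to 6 genes per list by the smaller of their same-sided ratios among probes above background throughout, and the 8 probes nearest to MBNL2. Alternatives changed the background correction, normalization, filter, probe summary, variance prior and fold threshold, and left out each hairpin. The classes by signal and the promoter motifs were chosen after the values had been seen.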

Additional observations from a re-analysis of the deposited data

How the results depend on the processing

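The limits are 1 control array, 2 hairpins and dim probes. The mean log2 change of the brightest MBNL2 probe was negative in all 14 alternatives, from −0.80 to −0.24. The probe had been picked for being lower and all alternatives reuse the same 3 arrays, so the shared sign is no support. Changes of filter or variance prior cannot alter this mean change. It was −0.24 without background correction, −0.25 on the deposited normalized values, −0.47 with an offset of 50 and −0.54 as the mean of its probes, and −0.80 to −0.63 when 1 hairpin was left out. Median scaling shifted the median of all kept probes by 0.13 with hairpin 2, and MBNL2 was then at −0.67. Member probes past 1.5-fold with both hairpins numbered 0 without background correction, with an offset of 50, on the deposited values, with gene means and at 2-fold, and 2 with either hairpin alone. Over all probes the count of 280 became 2 without background correction and on the deposited values, 25 with an offset of 50, 48 for probes above background throughout, 445 and 452 with looser or no filter, 104 and 99 by gene (brightest probe, mean), 945 at 1.3-fold, 21 at 2-fold, and 854 to 986 with 1 hairpin. Probes past the adjusted limma p numbered 2 as reported above, 0 with the stricter filter, the brightest probe per gene, no trend or the robust prior, 1 by gene mean, 3 with median scaling or no filter, and 2 in the others; those of members were 0 in all 12 alternatives with a test. Without hairpin 1, MBNL1 (−0.0343, against 0.0606 without hairpin 2), MBNL3 (−0.0344, against 0.13) and RBFOX2 (−0.00588, against 0.268) changed sign, as their ratios with hairpin 2 were near 0; the other brightest probes (CELF1, PTBP1 and QKI) kept theirs in every alternative. No paired analysis was possible because the title of the control array carries no number and its replicate number 1, given in accession order, is the only one the groups share.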

Other observations

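MBP, the myelin basic protein gene whose transcript QKI binds in mouse oligodendrocytes, was the only one of 5 neuron and glia markers with probes above background. It is given here because its values stood out once seen, and no rule named it. Probe ILMN_2331544 gave 264.8 units with hairpin 1 and 319.7 with hairpin 2, against 324.5 in the control, with log2 ratios of −0.51 and −0.32. ILMN_2398939 gave 334.4 and 427.4 units, against 405.7, with ratios of −0.42 and −0.16. The brightest probe, ILMN_1672660, went the other way, at 2469 and 3155 units, against 2409, with ratios of 0.05 and 0.22. The limma adjusted p of each was 0.997.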
